A study of Homo sapiens and Mus musculus with 19 samples.

Results

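The genes described here are 10 genes of the NRF2 and glutathione system, followed in chromatin-associated RNA (caRNA) of K562 cells. They are NFE2L2 and KEAP1, the regulators; GCLC and GCLM, which make glutathione; TXNRD1 and SRXN1 of the thioredoxin system; ME1, which supplies NADPH; NQO1 and HMOX1, which dispose of quinones and heme; and OSGIN1, a regulator of growth and cell death. They are 10 of the 58676 genes in the K562 tables and were set as a named list because GCLC stood higher in TET2 KO than in TET2 WT cells. The levels that set the choice, TET2 KO against TET2 WT, are therefore given below as a description and without a test. The responses to the shMBD6 label and the difference of those responses between genotypes were tested. Each of those tests includes an shControl group that also entered the comparison behind the choice. For GCLC that choice favours a rise with shMBD6 in TET2 WT, a fall in TET2 KO and a negative difference of the responses.

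NRF2, the product of NFE2L2, is a transcription factor that is held at a low level by KEAP1, the adaptor through which a cullin ubiquitin ligase marks it for degradation. Electrophiles and oxidants modify KEAP1, NRF2 then accumulates, pairs with a small MAF protein and binds antioxidant response elements near genes for glutathione synthesis, thioredoxin reduction, NADPH supply and detoxification. GCLC and GCLM are the catalytic and the modifier subunit of glutamate-cysteine ligase, the enzyme of the rate-limiting step of glutathione synthesis.

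K562 is a line from a chronic myeloid leukaemia. Every K562 library came from the chromatin fraction of cells that were TET2 WT or TET2 KO, TET2 being a dioxygenase that oxidises 5-methylcytosine. These cells are labelled shControl or shMBD6. The labels and the study's methods describe short hairpin RNAs brought in by lentivirus under puromycin selection, whereas a sample list of the study names the same libraries as treated with siNC or siMBD6, so whether a hairpin or a transfected siRNA was used is not settled; the labels' names are kept here. MBD6 encodes a methyl-CpG-binding-domain protein. There were 3 libraries in each of the 4 groups, with 70394616 to 102070213 gene counts in TET2 WT cells with shControl, 52158398 to 87433487 in those with shMBD6, 63592143 to 92120009 in TET2 KO cells with shControl and 65967724 to 78688025 in TET2 KO shMBD6. Chromatin-associated RNA of mouse embryonic stem cells treated with siControl or siNsun2, with 3 libraries each, is described last. The authors obtained the TET2 KO line as a gift and name both a gift and a cell repository as sources of TET2 WT cells, and whether TET2 KO is 1 clone is not given in the sources used here. What differs between the lines apart from TET2 cannot be told apart from the genotype, and the study calls the replicates of its genome-wide data biological without saying whether these libraries came from separate cultures, so that p-values measure the spread between these libraries, part of which may be technical.

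The labels were checked first on the targeted genes, in counts per 1000000 gene counts (CPM). TET2 stood at 121 ± 2.59 CPM (SD, n = 3) in TET2 WT cells with shControl, 122 ± 4.06 in those with shMBD6, 129 ± 2.22 in TET2 KO cells with shControl and 94.8 ± 5.28 in TET2 KO shMBD6, so with shControl its caRNA did not mark the knockout; where in TET2 the cells were edited is not given in the sources used here. MBD6 was at 41.5 ± 2.55 CPM in TET2 WT with shControl and at 28.0 ± 2.71 with shMBD6, which is -0.57 on the log2 scale (SE 0.08; by the edgeR quasi-likelihood test with Benjamini-Hochberg adjustment, adjusted p = 1.83e-07). In TET2 KO it stood at 30.3 ± 0.750 CPM with shControl and 34.4 ± 3.86 with shMBD6, a log2 change of 0.19 (SE 0.08, edgeR adjusted p = 0.0574), against the direction of the label, and 8 of 13 alternative analyses called it higher (adjusted p from 0.00158 to 0.367). The TET2 KO libraries of this kind are therefore called the libraries labelled shMBD6. The labels describe K562 as lymphoblast cells. Of 17 erythroid and megakaryocyte markers, 12 or 13 per group reached 1 CPM and their summed level ran from 2680 to 3172 CPM, of which ABL1 and BCR, the fused genes of K562, made up most. The fetal globin HBG1 had group means from 0.990 to 6.63 CPM. The embryonic and fetal globins HBE1 and HBG2 were at 0 in every library. Whether other genes on their strand take their reads was not examined, so these zeros need not mean absent RNA. Lymphoid markers summed to 25.2 to 35.8 CPM, mostly RAG1, with group means of MS4A1 and CD79A under 1 CPM, and monocyte markers to 26.1 to 45.2 CPM, with S100A8 at 0 and the group means of CD14 under 1 CPM.

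The start regions of 5 of the 7 members that responded to shMBD6 are shown because they carry the contrast described below: GCLC, GCLM and ME1 responded in one direction, TXNRD1 and KEAP1 in the other. NFE2L2 and NQO1, which responded as TXNRD1 and KEAP1 did, are not shown, and for TXNRD1 and KEAP1, with 2 windows each, the window with more motif matches is printed. The windows run from 250 bases before to 50 bases after a RefSeq gene start (GRCh38.p14) and are written 5′ to 3′ on the gene's strand, with TGACNNNGC, the core of the antioxidant response element, in capitals wherever it occurs on either strand.
GCLC, chr6:53545052-53545351, minus strand: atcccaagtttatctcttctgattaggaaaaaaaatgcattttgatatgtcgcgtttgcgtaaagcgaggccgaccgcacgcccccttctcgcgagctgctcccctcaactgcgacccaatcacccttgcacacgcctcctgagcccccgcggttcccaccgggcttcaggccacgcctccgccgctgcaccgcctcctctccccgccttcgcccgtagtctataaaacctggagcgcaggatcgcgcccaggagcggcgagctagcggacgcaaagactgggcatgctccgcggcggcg
GCLM, chr1:93909381-93909680, minus strand: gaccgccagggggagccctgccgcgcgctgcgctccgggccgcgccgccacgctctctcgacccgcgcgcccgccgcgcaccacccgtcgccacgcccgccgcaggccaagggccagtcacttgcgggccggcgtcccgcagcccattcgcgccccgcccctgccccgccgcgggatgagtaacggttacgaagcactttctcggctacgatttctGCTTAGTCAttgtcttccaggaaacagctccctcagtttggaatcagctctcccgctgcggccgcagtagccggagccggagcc
ME1, chr6:83431002-83431301, minus strand: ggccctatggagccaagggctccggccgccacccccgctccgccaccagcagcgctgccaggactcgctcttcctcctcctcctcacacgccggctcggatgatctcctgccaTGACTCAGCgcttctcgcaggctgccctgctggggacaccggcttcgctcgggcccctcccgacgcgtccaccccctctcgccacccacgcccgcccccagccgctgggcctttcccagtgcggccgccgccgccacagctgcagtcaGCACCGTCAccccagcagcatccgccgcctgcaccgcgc
TXNRD1, chr12:104215529-104215828, plus strand: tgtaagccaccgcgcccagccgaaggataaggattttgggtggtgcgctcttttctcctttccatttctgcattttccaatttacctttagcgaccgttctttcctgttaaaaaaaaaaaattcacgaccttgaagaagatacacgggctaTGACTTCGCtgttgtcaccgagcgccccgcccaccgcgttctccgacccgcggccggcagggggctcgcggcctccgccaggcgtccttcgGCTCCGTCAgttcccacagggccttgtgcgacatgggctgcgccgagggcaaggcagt
KEAP1, chr19:10502722-10503021, minus strand: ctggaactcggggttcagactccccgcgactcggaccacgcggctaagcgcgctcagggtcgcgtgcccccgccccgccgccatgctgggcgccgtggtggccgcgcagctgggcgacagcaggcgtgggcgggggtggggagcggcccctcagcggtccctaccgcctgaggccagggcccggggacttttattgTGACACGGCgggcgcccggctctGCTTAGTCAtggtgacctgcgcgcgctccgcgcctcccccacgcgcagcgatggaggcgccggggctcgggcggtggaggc

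The GCLC window holds no match, the GCLM window 1, and the ME1, TXNRD1 and KEAP1 windows printed here 2 each; the other TXNRD1 window holds 1 and the other KEAP1 window none. The first of the ME1 matches overlaps TGACTCA, the site of AP-1 factors. Of 12 windows found for 9 of the 10 members, 5 windows of 4 members held the motif, whereas 13.3% of all 35116 windows of this length did. Matches were thus found in members of both response directions (GCLM and ME1 on one side, TXNRD1 and KEAP1 on the other), and no window of GCLC, NQO1, NFE2L2, SRXN1 or OSGIN1 held these letters. A match is a description of the letters, not a site shown to be bound. A window without a match says nothing of letters farther from the start, which were not searched. The RefSeq starts of GCLC and NFE2L2 lie inside the longer spans that GENCODE v44 gives these genes.

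Chromatin-bound RNA of most members was readily counted. Spans below are from GENCODE v44 on GRCh38, and since none of the members has the same identifier version in the files, the counted spans may differ. Per kb of span, the mean over the 4 groups was 1.72 CPM for NFE2L2 (chromosome 2, 177218667 to 177392756), 1.44 for GCLM (chromosome 1, 93885199 to 93909456), 1.19 for TXNRD1 (chromosome 12, 104215779 to 104350307) and 1.11 for KEAP1 (chromosome 19, 10486125 to 10503558). GCLC (chromosome 6, 53497341 to 53616970) stood at 0.491 CPM per kb, NQO1 (chromosome 16, 69706996 to 69726668) at 0.467, ME1 (chromosome 6, 83210402 to 83431051) at 0.337 and OSGIN1 (chromosome 16, 83931311 to 83966332) at 0.139. Among these 8 the group means of each member overlapped those of the next member, except that the lowest ME1 group, at 0.240 CPM per kb, was above the highest OSGIN1 group, at 0.171, and the lowest KEAP1 group, at 0.814, above the highest GCLC group, at 0.716. Spans from the RefSeq starts of GCLC and NFE2L2 would be shorter and their values per kb higher. The gap between KEAP1 and GCLC is therefore not settled. When levels were divided by exon length instead, TXNRD1, ME1 and NFE2L2 came first, at 23.9, 22.3 and 20.0 CPM per kb, so that only the places of OSGIN1, HMOX1 and SRXN1 at the end were the same on both scales.

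HMOX1, the inducible heme oxygenase (chromosome 22, 35380361 to 35394214), was close to undetected: 1, 9 and 3 reads in TET2 WT cells with shControl, 8, 14 and 20 in those with shMBD6, 1, 1 and 5 in TET2 KO cells with shControl and 0, 2 and 0 in the TET2 KO libraries labelled shMBD6. The TET2 WT shMBD6 group had the highest level, 0.205 CPM, and overlapped TET2 WT shControl, at 0.0433 CPM. The 2 reads of the last group lie under the level that 3 counts over its libraries stand for, 0.0139 CPM, a limit that covers counting error only. SRXN1, which reactivates peroxiredoxins (sulfiredoxin, chromosome 20, 646615 to 653200), had 0 counts in all 12 libraries. All but 11 bases of it lie within ENSG00000270299.1 (646626 to 675800) on the same strand, and of 8572 genes that lie inside a gene on their own strand 95.5% had 0 counts in all 12 libraries, against 22.5% of 9736 genes inside a gene on the opposite strand only. Its zeros are thus no measure of its level. Neither gene passed the filter on low counts, which left 8 of the 10 members in the fit.

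**Figure D1:**
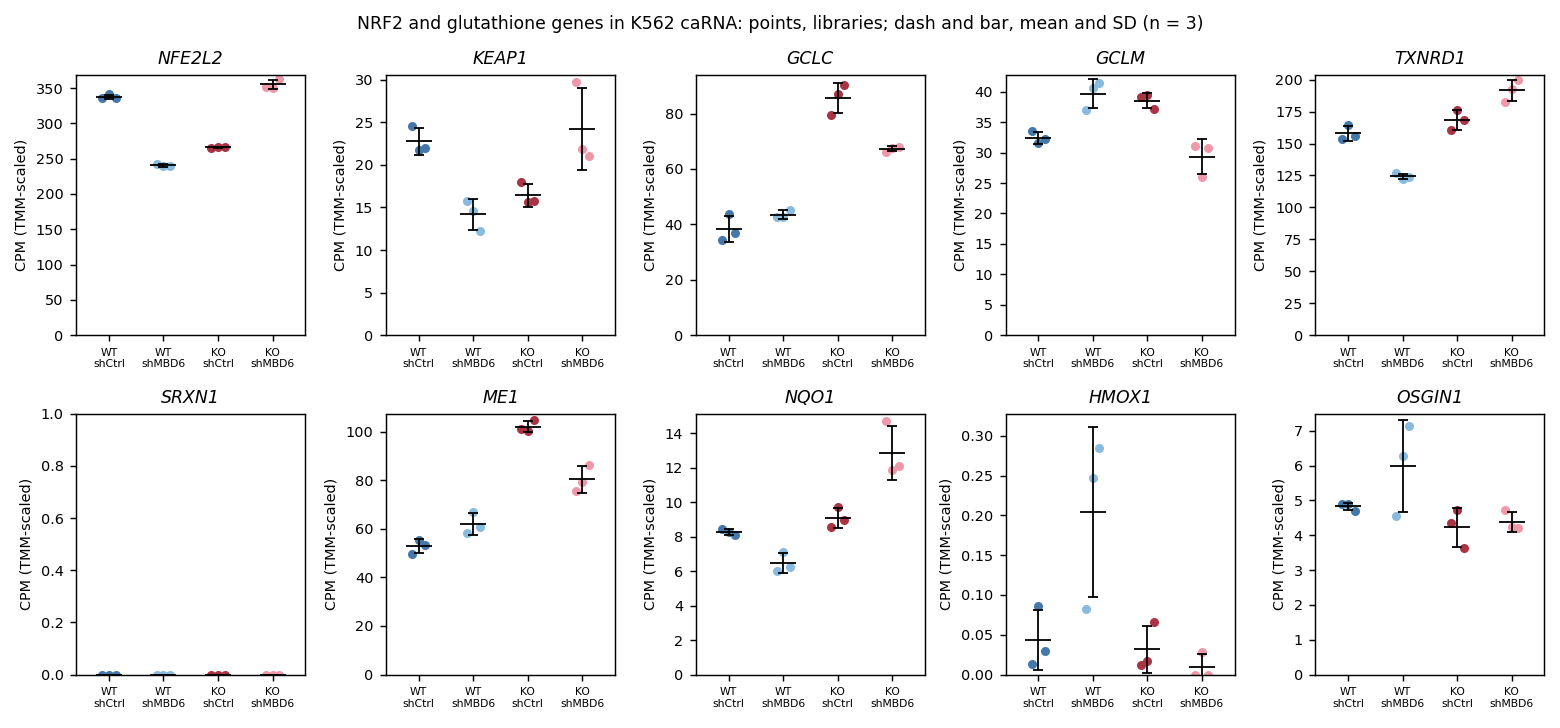
Levels of the 10 members in caRNA (vertical axes, TMM-scaled CPM, from 0) in the 4 K562 groups, with 1 point per library and the mean and SD of 3 libraries as dash and bar; the bars of HMOX1 are cut at 0. GCLC and ME1 stand highest in TET2 KO shControl (85.7 and 102 CPM), NFE2L2 and KEAP1 lowest in TET2 WT shMBD6 (240 and 14.2 CPM), and SRXN1 is at 0 throughout.

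GCLC set the choice of the list. Its level was 34.3, 43.6 and 37.1 CPM in TET2 WT cells with shControl, 42.5, 42.7 and 45.3 in those with shMBD6, 79.6, 87.0 and 90.4 in TET2 KO cells with shControl and 66.2, 67.5 and 68.1 in the TET2 KO libraries labelled shMBD6. Every TET2 KO library was above every TET2 WT library, and the log2 difference was 1.16 with shControl (SE 0.06) and 0.63 with shMBD6 (SE 0.06). ENSG00000231683, on the same strand, overlaps GCLC and had at most 5 reads in a library, so that reads in the shared stretch may have been set aside.

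ME1, the cytosolic malic enzyme, was the member nearest to GCLC in its levels. It stood at 49.7, 55.4 and 53.5 CPM in TET2 WT cells with shControl, 58.1, 66.8 and 60.6 in those with shMBD6, 101, 100.4 and 105 in TET2 KO cells with shControl and 75.7, 79.1 and 86.4 in the TET2 KO libraries labelled shMBD6. Every TET2 KO library was again above every TET2 WT library. The log2 difference between genotypes was 0.95 with shControl and 0.38 with shMBD6.

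The partner subunit of GCLC did not share this pattern. GCLM stood at 33.5, 31.6 and 32.2 CPM in TET2 WT shControl and 39.1, 39.4 and 37.1 in TET2 KO shControl, a log2 difference of 0.25, but at 37.1, 40.6 and 41.4 CPM in TET2 WT shMBD6 and 31.1, 26.0 and 30.8 in the TET2 KO libraries labelled shMBD6, a log2 difference of -0.44. Its genotype difference thus had opposite signs under the shRNA labels, with no overlap of the groups in either, but with total gene counts the shControl difference came to 0.07 (SE 0.07).

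NFE2L2, which encodes NRF2 itself, stood at 336, 341 and 336 CPM in TET2 WT shControl and 265, 266 and 266 in TET2 KO shControl, and at 242, 239 and 240 CPM in TET2 WT shMBD6 and 352, 350.0 and 363 in the TET2 KO libraries labelled shMBD6. The log2 difference of TET2 KO from TET2 WT was -0.34 with shControl and 0.56 with shMBD6. KEAP1, its repressor, had the same signs: 24.6, 21.7 and 21.97 CPM in TET2 WT cells with shControl, 18.0, 15.6 and 15.7 in TET2 KO shControl, 15.8, 14.5 and 12.2 in TET2 WT shMBD6 and 29.7, 21.8 and 21.0 in the TET2 KO libraries labelled shMBD6, log2 differences of -0.47 and 0.77. Both regulators were therefore lower with TET2 KO under shControl and higher under shMBD6, without overlap. NFE2L2 overlaps 5 annotated genes on its strand and 6 on the other, AGPS and HNRNPA3 among them, and KEAP1 overlaps ENSG00000267197 on its strand, which had 0 counts, so their levels may be undercounted.

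TXNRD1, the cytosolic thioredoxin reductase, stood at 154, 165 and 156 CPM in TET2 WT shControl, 127, 123 and 124 in those with shMBD6, 160.4, 176 and 168 in TET2 KO cells with shControl and 183, 192 and 199.8 in the TET2 KO libraries labelled shMBD6. NQO1, the quinone reductase, stood at 8.46, 8.30 and 8.10 CPM, 6.02, 7.11 and 6.27, 8.55, 9.70 and 8.998, and 14.7, 11.9 and 12.1 in the same order of groups. With shControl the genotypes overlapped for TXNRD1 and the log2 differences were 0.09 for TXNRD1 and 0.13 for NQO1; scaling by total gene counts turned both below 0, to -0.09 and -0.05. With shMBD6 the TET2 KO libraries were above the TET2 WT libraries for both, by 0.62 and 1.00 on the log2 scale. The pseudogene RPL18AP3 and EID3, which overlap TXNRD1 on its strand, had 0 counts.

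OSGIN1 stood at 4.89, 4.89 and 4.71 CPM in TET2 WT cells with shControl, 4.55, 6.28 and 7.13 in those with shMBD6, 4.36, 4.72 and 3.62 in TET2 KO cells with shControl and 4.72, 4.25 and 4.19 in the TET2 KO libraries labelled shMBD6. Its groups overlapped between genotypes under both shRNA labels, with log2 differences of -0.19 and -0.45. It overlaps MLYCD on the same strand, which stood at 11.98 to 19.8 CPM by group.

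Across the 8 members in the fit, the TET2 KO level did not overlap the TET2 WT level for 6 members with shControl (4 higher, 2 lower) and for 7 with shMBD6 (6 higher, 1 lower), where 56.1% of all 26022 genes did not overlap with shControl (27.8% higher, 28.3% lower) and 64% with shMBD6 (31.3% higher, 32.7% lower). Under shControl the log2 differences of GCLC and ME1, 1.16 and 0.95, were followed by that of GCLM, 0.25. Under shMBD6 the largest differences were those of NQO1 and KEAP1.

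**Figure D2:**
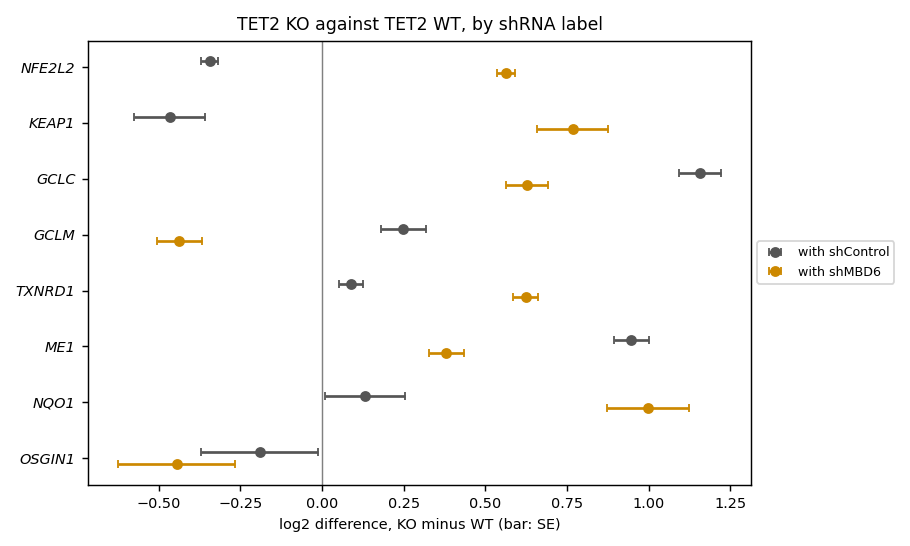
Log2 difference of TET2 KO from TET2 WT (horizontal axis; bar, SE of the fit) for the 8 members that passed the filter, with shControl (grey) and with shMBD6 (ochre). GCLC at 1.16 and ME1 at 0.95 lie to the right under shControl, and NFE2L2, KEAP1 and GCLM lie on opposite sides of 0 under the pair of labels.

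With shMBD6 in TET2 WT cells, where MBD6 was lower, 7 of the 8 members were called: GCLC, GCLM and ME1 rose, and NFE2L2, KEAP1, TXNRD1 and NQO1 fell. Of all 26022 genes, 42.4% were called in this comparison, 17.7% higher and 24.7% lower. A stricter filter kept the 9936 genes at 10 CPM or more in at least 3 libraries. Of these, 6775 were called, 3412 higher and 3363 lower. NFE2L2 changed by -0.49 on the log2 scale (SE 0.03, edgeR adjusted p = 3.51e-16) and KEAP1 by -0.68 (SE 0.11, edgeR adjusted p = 4.34e-06). TXNRD1 changed by -0.35 (SE 0.04, edgeR adjusted p = 3.07e-09). In the other direction, GCLM changed by 0.29 (SE 0.07, edgeR adjusted p = 0.000739) and ME1 by 0.22 (SE 0.05, edgeR adjusted p = 0.000877). The groups did not overlap for any of these 5 genes or for NQO1, where 57.7% of all genes did not overlap (29.3% higher, 28.4% lower).

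The call on GCLC was the weakest of those that rose: its groups overlapped, and its log2 change of 0.18 (SE 0.06, edgeR adjusted p = 0.0206) missed the threshold when TET2 WT shControl replicate 1 or 3 or TET2 WT shMBD6 replicate 3 was left out (adjusted p = 0.215, 0.0968 and 0.104, against a range of 8.78e-07 to 0.215 over 13 alternatives, 10 of which called it). NQO1 changed by -0.36 (SE 0.12, edgeR adjusted p = 0.0188) and was called in 6 of 13 alternatives (adjusted p from 0.0137 to 0.197), being lost with each other scaling or filter, with DESeq2 and without TET2 WT shMBD6 replicate 1 or 3 (log2 -0.31 and -0.34). OSGIN1 was not called (log2 0.31, SE 0.18, edgeR adjusted p = 0.169), and 2 of 12 alternatives called it higher, DESeq2 and the fit without TET2 WT shMBD6 replicate 1 (adjusted p = 0.0481 and 0.0469, over a range of 0.0469 to 0.592).

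In TET2 KO the same 7 members were called between the libraries labelled shMBD6 and shControl, each in the opposite direction: NFE2L2, KEAP1, TXNRD1 and NQO1 rose, and GCLC, GCLM and ME1 fell. Here 36.4% of all genes were called, 15.7% higher and 20.6% lower. Of the 9936 genes of the stricter filter, 6856 were called, 3418 higher and 3438 lower. The log2 change was 0.42 for NFE2L2 (SE 0.03, edgeR adjusted p = 2.2e-14), 0.56 for KEAP1 (SE 0.11, edgeR adjusted p = 0.0001) and 0.51 for NQO1 (SE 0.12, edgeR adjusted p = 0.00126). TXNRD1 changed by 0.19 (SE 0.04, edgeR adjusted p = 0.00012). GCLC changed by -0.35 (SE 0.06, edgeR adjusted p = 2.67e-05), GCLM by -0.40 (SE 0.07, edgeR adjusted p = 2.05e-05) and ME1 by -0.34 (SE 0.05, edgeR adjusted p = 2.56e-06). None of the 7 overlapped between the groups, where 43.8% of all genes did not overlap (18.5% higher, 25.3% lower), and OSGIN1 stayed uncalled (log2 0.05, SE 0.18, edgeR adjusted p = 0.861).

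**Figure D3:**
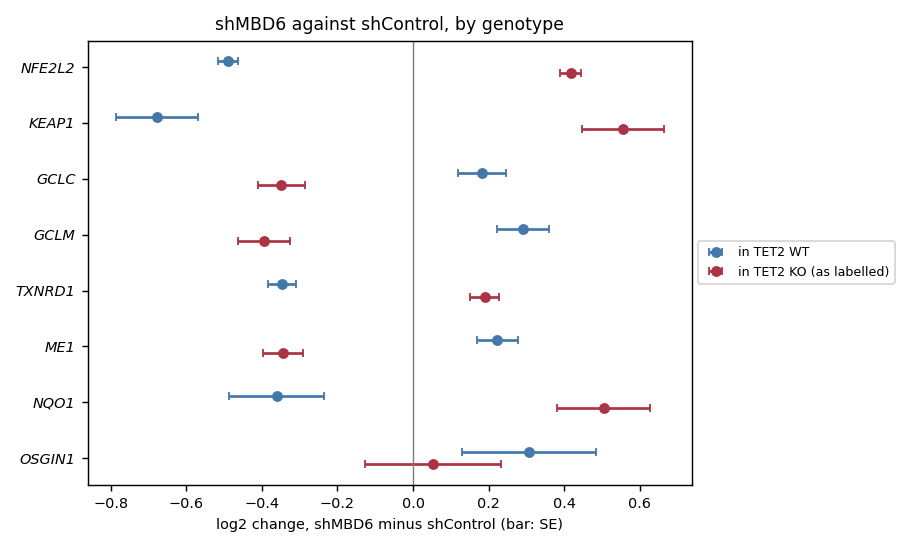
Log2 change from shControl to shMBD6 (horizontal axis; bar, SE of the fit) for the 8 members that passed the filter, in TET2 WT (blue) and in TET2 KO as labelled (red). For 7 members the points lie on opposite sides of 0, from -0.68 against 0.56 for KEAP1 to 0.18 against -0.35 for GCLC, and for OSGIN1 both bars are wide.

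The difference between these responses was tested as the genotype by shRNA interaction, TET2 KO minus TET2 WT. It was called for 7 members, 4 higher and 3 lower, in a comparison where 49.4% of all genes were called (23.9% higher, 25.5% lower). Among the 9936 genes of the stricter filter, 7680 were called, so most genes at such levels passed this test. The interaction was 1.23 on the log2 scale for KEAP1 (SE 0.15, edgeR adjusted p = 3.45e-08), 0.91 for NFE2L2 (SE 0.04, edgeR adjusted p = 1.48e-19), 0.87 for NQO1 (SE 0.18, edgeR adjusted p = 9.58e-05) and 0.54 for TXNRD1 (SE 0.05, edgeR adjusted p = 2.79e-10). It was -0.69 for GCLM (SE 0.10, edgeR adjusted p = 3.84e-07), -0.57 for ME1 (SE 0.08, edgeR adjusted p = 1.06e-07) and -0.53 for GCLC (SE 0.09, edgeR adjusted p = 6.51e-06). OSGIN1 had an interaction of -0.25 (SE 0.25, edgeR adjusted p = 0.427).

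The shRNA comparisons in TET2 WT and TET2 KO share no library, but the baseline of each is an shControl group that entered the choice of GCLC. A gene chosen as low in TET2 WT shControl and high in TET2 KO shControl is favoured to rise in TET2 WT and fall in TET2 KO. The crossed directions of GCLC are therefore no independent result. Lower in TET2 WT and higher in TET2 KO were 4 of the 8 members (NFE2L2, KEAP1, TXNRD1 and NQO1) and 12.6% of all genes, and the reverse held for 3 members (GCLC, GCLM and ME1) and 10.2% of all genes. No member was called in the same direction in both, as 3.02% of all genes were. As a description, the glutamate-cysteine ligase subunits and ME1 moved against the transcription factor, its repressor and the reductases in both genotypes. GCLC adds no independent weight to this contrast. Like GCLC, ME1 had a lower shControl mean in TET2 WT (52.9 CPM) than in TET2 KO (102 CPM). The members were chosen with earlier results known, so the limit on GCLC may hold for ME1 too. In TET2 WT the GCLC call held in 10 of 13 alternatives and the NQO1 call in 6 of 13.

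Some other measures moved with the groups in the same crossed way. Mitochondrial transcripts took 0.0229% of gene counts in TET2 WT cells with shControl, 0.0460% in those with shMBD6, 0.0514% in TET2 KO cells with shControl and 0.0254% in the TET2 KO libraries labelled shMBD6. In the same order of groups, the genes with at least 1 read averaged 30917, 34106, 28810 and 26122 per library. Reads shared by overlapping genes averaged 5.11%, 4.68%, 4.75% and 5.03% of records. The erythroid and megakaryocyte list had 15 markers in the fit and holds the fused genes ABL1 and BCR besides lineage genes. Of the 15, 1 was called higher and 9 lower in TET2 WT, and 8 higher and 3 lower in TET2 KO. Lower in TET2 WT and higher in TET2 KO, as NFE2L2 was, were 6, with 1 the reverse. GATA1, the master factor of the lineage, and KLF1, both named after their values were seen, stood at 54.2, 35.3, 34.9 and 46.4 CPM and at 18.7, 9.79, 7.94 and 12.1 CPM in the same order of groups. The sum over all 17 markers did not cross in this way: it ran from 3057 to 3172, 2680 to 2732, 2891 to 2923 and 2809 to 2847 CPM and was thus lower with the shMBD6 label in both genotypes. Most of that sum was ABL1, at 1133, 1249, 1460 and 1165 CPM, and BCR, at 700, 656, 752 and 743 CPM. ABL1 was higher with shMBD6 in TET2 WT and lower in TET2 KO, so the sum does not show how the other markers moved. Of 7 monocyte markers 3 were higher in TET2 WT and 2 of these lower in TET2 KO, and of 7 lymphoid markers 1 was higher and 1 lower in TET2 WT and 0 were called in TET2 KO. Across 16266 protein-coding genes, the log2 change with shMBD6 had a Spearman correlation with gene span of 0.25 in TET2 WT and -0.29 in TET2 KO, and with mean CPM of -0.46 and 0.15, a description over genes that share the same libraries. In GENCODE v44, GCLC and ME1 span 120 and 221 kb and KEAP1 and NQO1 17.4 and 19.7 kb, whereas NFE2L2 spans 174 kb and GCLM 24.3 kb. From their RefSeq starts GCLC and NFE2L2 would be shorter. The part of these measures in the members' changes was not tested. In these bulk libraries a shift in the kinds of cells and a change of RNA per cell cannot be told apart.

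The wider pathway was read from 8 lists with 128 other genes, 118 of which passed the filter. With shMBD6 in TET2 WT, 20 of them rose and 61 fell, where 17.7% of all genes rose and 24.7% fell. Their median log2 change was -0.21 against 0.10 over all genes. In TET2 KO, 37 rose and 23 fell with the libraries labelled shMBD6, where 15.7% of all genes rose and 20.6% fell. The median there was 0.04 against -0.07. The direction split depended on the scaling and the filter. DESeq2 size factors gave 25 higher and 43 lower in TET2 WT, and total gene counts gave 57 higher and 19 lower in TET2 KO. The stricter filter gave 21 higher and 34 lower in TET2 WT, where 3412 and 3363 of all 9936 genes were. In TET2 KO it gave 36 higher and 19 lower, where 3418 and 3438 of all 9936 genes were. The interaction was called for 85, 59 higher and 26 lower, where 23.9% of all genes were higher and 25.5% lower (median 0.27 against -0.19 over all genes). Lower in TET2 WT and higher in TET2 KO were 32 of the 118 (27.1%), the pattern of NFE2L2, against 12.6% of all genes. The reverse, the pattern of GCLC, held for 13 (11.02%), close to the 10.2% of all genes.

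In TET2 WT, NADPH supply had 1 of 11 higher and 9 lower, heme and iron handling 0 of 9 higher and 6 lower, and thioredoxins and peroxiredoxins 2 of 16 higher and 9 lower. In TET2 KO the same lists had 5 higher and 1 lower, 4 higher and 1 lower, and 6 higher and 3 lower. Of all genes, 17.7% were called higher and 24.7% lower in TET2 WT, and 15.7% and 20.6% in TET2 KO. NRF2 partners and control genes had 3 of 17 higher and 10 lower in TET2 WT, and 7 higher and 5 lower in TET2 KO. Glutathione supply, recycling and peroxidases had 3 of 22 higher and 10 lower, then 5 higher and 2 lower. Glutathione transferases and conjugate exporters had 5 of 19 higher and 8 lower, then 6 and 6. Enzymes for carbonyls, quinones and xenobiotics had 6 of 20 higher and 7 lower, then 2 and 5, and superoxide and peroxide removal had 0 of 4 higher and 2 lower, then 2 and 0.

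The changes below are the largest by the naming rule. SLC40A1, ferroportin, the cellular iron exporter, stood at 62.7, 61.9 and 62.0 CPM in TET2 WT cells with shControl, 23.8, 26.8 and 24.3 in those with shMBD6, 27.0, 28.3 and 30.8 in TET2 KO cells with shControl and 56.0, 54.7 and 58.1 in the TET2 KO libraries labelled shMBD6. It changed by -1.32 on the log2 scale in TET2 WT (SE 0.06, edgeR adjusted p = 3.83e-18) and by 0.97 in TET2 KO (SE 0.06, edgeR adjusted p = 9.14e-15), the directions of NFE2L2. BACH2, a repressor that pairs with small MAF proteins as NRF2 does, rose in TET2 WT from 74.8 ± 5.05 to 194 ± 7.24 CPM (SD, n = 3; log2 1.37, SE 0.05, edgeR adjusted p = 1.81e-21) and overlaps 2 genes on its strand. The exporter ABCC3 and the aldose reductase AKR1B1 rose there by 2.26 and 1.86 from levels of 0.282 and 0.495 CPM (SE 0.65 and 0.63, edgeR adjusted p = 0.00507 and 0.0169); AKR1B1 was called in 8 of 12 alternatives and lost with DESeq2 and without TET2 WT shControl replicate 1 or 3 or TET2 WT shMBD6 replicate 2 (log2 1.84, 1.69 and 1.75). In TET2 KO the mitochondrial malic enzyme ME3 fell from 1.24 to 0.503 CPM (log2 -1.29, SE 0.31, edgeR adjusted p = 0.000915), like its cytosolic relative ME1, and in TET2 WT it rose by 1.08. MSRB3, a methionine sulfoxide reductase, fell by 1.27 on the log2 scale (edgeR adjusted p = 0.00508) and GSTA4, a glutathione transferase, rose by 0.94 (edgeR adjusted p = 0.0246). MSRB3 overlaps 1 gene on its strand. The GSTA4 call was lost without TET2 KO shControl replicate 1 (log2 0.77) or without replicate 2 of those labelled shMBD6 (log2 0.89). The largest interactions were those of AKR1B1 (log2 -4.20), GGT5 (-3.08), ABCC3 (-2.57) and MSRB3 (-2.40). AKR1B1 had 0, 1 and 30 reads in the TET2 KO libraries labelled shMBD6, so that its value rests on replicate 3 of them and was -8.17 without it. ABCC3 was called in 10 of 17 alternatives (adjusted p from 0.00872 to 0.181) and lost without TET2 WT shControl replicate 1 or 3, any TET2 WT shMBD6 replicate, TET2 KO shControl replicate 2 or replicate 3 of those labelled shMBD6 in TET2 KO (log2 -2.65 to -1.79).

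Of the 32 pathway genes with the pattern of NFE2L2, 21 were called in these directions in every alternative run, and of the 13 with the pattern of GCLC 7 were. Of both kinds 16 are given, chosen after their values were seen and, except SQSTM1, called in both comparisons in every alternative. GSS, glutathione synthetase, the step after GCLC and GCLM, changed with shMBD6 by -0.86 on the log2 scale in TET2 WT and 0.50 in TET2 KO, the reverse of both ligase subunits. GSR, which regenerates reduced glutathione, changed by -0.35 and 0.20. The subunits of the cystine importer also parted: SLC7A11, the transporter, changed by 0.10 and -0.36, as GCLC did, and SLC3A2, its heavy chain, by -0.51 and 0.41. NFE2L1, a relative of NRF2, changed by -0.46 and 0.53. The peroxiredoxins PRDX1 and PRDX3 changed by -0.47 and -0.62 in TET2 WT and by 0.42 and 0.80 in TET2 KO, and the mitochondrial thioredoxin TXN2 by -0.87 and 0.53. CAT, catalase, changed by -0.76 and 0.71 and GSTP1, a glutathione transferase, by -0.74 and 0.54. In heme and iron handling, FECH, ferrochelatase, changed by -0.77 and 0.56 and TFRC, the transferrin receptor and also a marker of erythroid cells, by -0.70 and 0.56. Other genes had the directions of GCLC. BTRC, a ubiquitin ligase adaptor that acts on NRF2 apart from KEAP1, changed by 0.20 and -0.46, and SQSTM1, the autophagy receptor that binds KEAP1, by 0.41 and -0.18, the latter not called with total gene counts (-0.05, edgeR adjusted p = 0.312, over a range of 4.8e-05 to 0.312). The methionine sulfoxide reductase MSRA changed by 0.35 and -0.94 and the glutathione transferase MGST3 by 0.30 and -0.57.

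**Figure D4:**
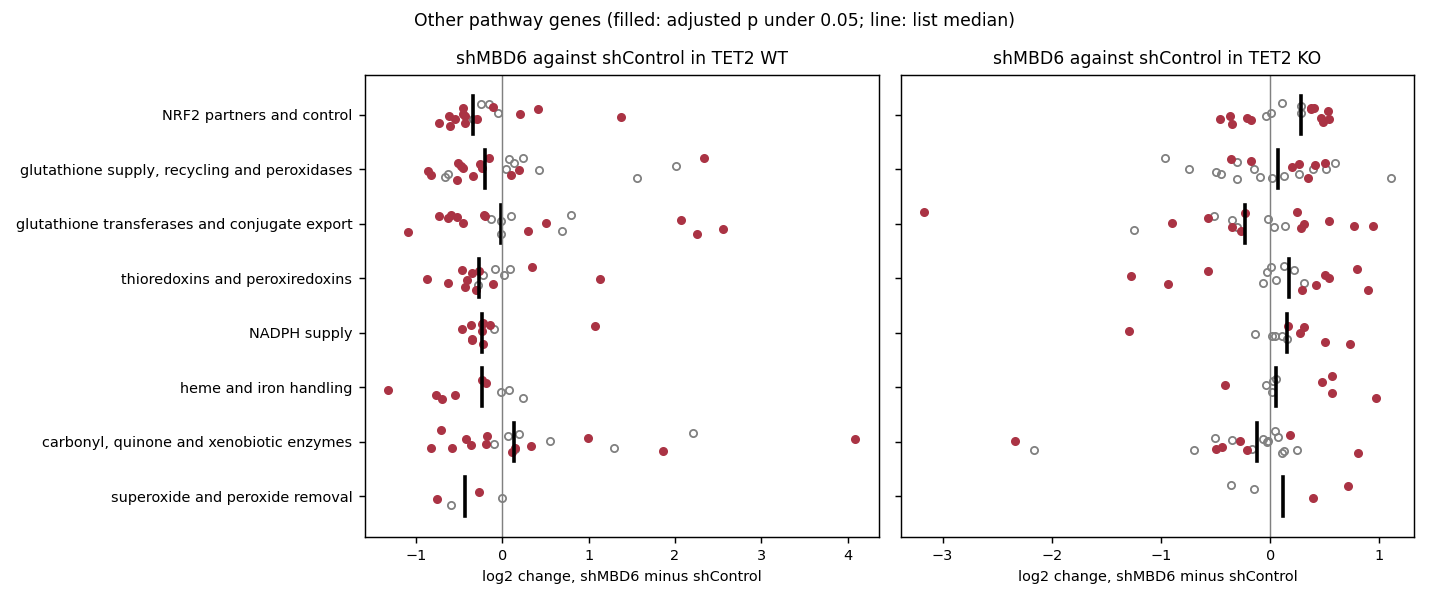
Log2 change from shControl to shMBD6 (horizontal axes) of the 118 other pathway genes by list, in TET2 WT (left) and TET2 KO as labelled (right), with filled points for genes called, open points for the others and a line at each list's median; heights within a list are scattered at random. Medians of 7 of the 8 lists lie below 0 on the left, and 6 of 8 lie above 0 on the right.

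Between genotypes, 31 of the 118 other pathway genes were called higher and 43 lower with shControl, where 45.8% of all genes were called (23.5% higher, 22.3% lower), and 58 higher and 21 lower with shMBD6, where 58.6% were (30.1% higher, 28.5% lower); with total gene counts the splits were 16 and 58, and 43 and 32. Since GCLC was chosen on this contrast, nothing is read from the shares. MGST1, a microsomal glutathione transferase, came closest to GCLC among the genes named by rule: it rose from 25.6 ± 0.943 to 64.7 ± 1.24 CPM with shControl (SD, n = 3; log2 1.34, SE 0.06, edgeR adjusted p = 7.47e-19), and overlaps 2 genes on its strand. AKR1C3 and GGT5 rose by 1.37 and 2.49 from 1.03 and 0.186 CPM (edgeR adjusted p = 0.000122 and 0.00057), and SLC40A1 fell by 1.11. With shMBD6 the genes by rule were all lower in TET2 KO and low in level: PTGR1, ABCC3, AKR1B1 and ME3, at 1.01, 1.36, 1.81 and 5.01 CPM in TET2 WT and at most 0.503 CPM in TET2 KO, with log2 differences of -4.09, -3.95, -3.69 and -3.31 (edgeR adjusted p = 4.45e-05, 2.5e-05, 4.97e-05 and 5.3e-11); the AKR1B1 difference was -7.65 when replicate 3 of the TET2 KO group, with its 30 reads, was left out.

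Most genes around GCLC did not share its level in TET2 KO. Within 1 Mb of the GCLC start, 20 genes passed the filter, and with shControl 6 of them were above 0 in TET2 KO against TET2 WT, with a median log2 difference of -1.13, against -0.12 for the 1286 genes of chromosome 6. Of 11 protein-coding neighbours, ELOVL5, a fatty acid elongase and the most abundant at 346 CPM, had 0.08, CILK1 0.09 and FBXO9 -0.36. LRRC1, MLIP, TINAG, KLHL31, GSTA3 and GSTA4 had -1.87, -2.39, -2.46, -4.03, -1.23 and -0.48, TMEM14A had -0.60, and GCM1, at 0.276 CPM, had 3.47. Of these, all but ELOVL5, FBXO9, CILK1, TMEM14A and GSTA4 were under 1 CPM. Among the neighbours that are not protein-coding, only ENSG00000216775 reached 1 CPM, at 9.32 CPM and a log2 difference of 0.47. The median of -1.13 thus rests mostly on genes under 1 CPM. Around ME1, a window chosen after its level was seen, 10 genes had a median of -0.15, with the protein-coding genes between -2.05 (SNAP91) and 0.43 (PGM3).

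**Figure D5:**
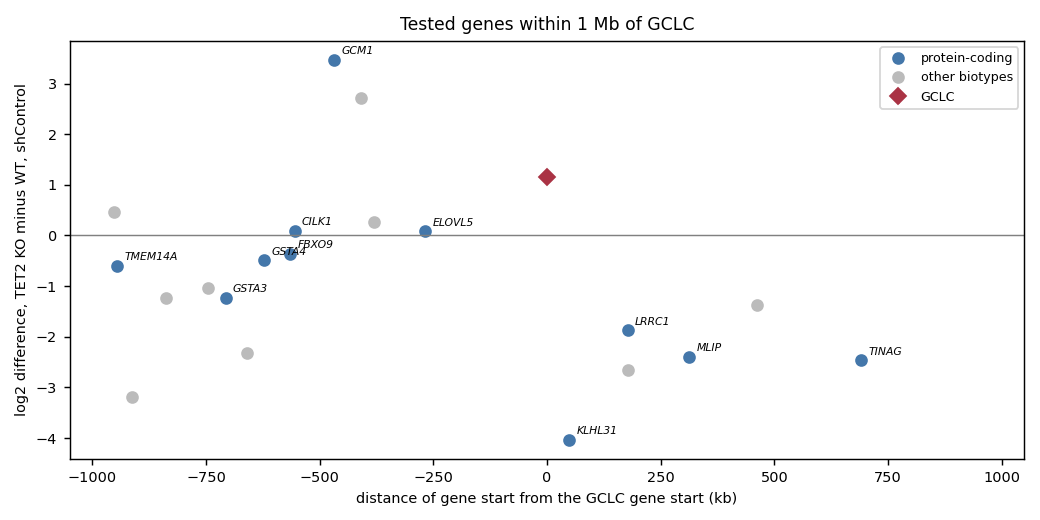
Log2 difference of TET2 KO from TET2 WT with shControl (vertical axis) of the 20 tested genes that start within 1 Mb of the GCLC start, against the distance of their starts from it in kb (horizontal axis); blue points are protein-coding, grey points other genes, and the red diamond is GCLC at 1.16. ELOVL5 and CILK1 lie at 0.08 and 0.09, and only GCM1 and 1 pseudogene stand above GCLC.

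The genes with levels most like those of GCLC were picked from all protein-coding genes, by a distance that includes the TET2 KO and TET2 WT levels behind the choice of the list. By the root-mean-square difference of log2 CPM, centred on each gene's mean over the 12 libraries, the 5 protein-coding genes nearest to GCLC of 16265 were CYRIB and PIP4P2 on chromosome 8, GOLGA8A on chromosome 15, LRRC69 on chromosome 8 and ALDH1A2 on chromosome 15, at 0.0869 to 0.102. ALDH1A2, a retinaldehyde dehydrogenase, stood at 386, 455, 892 and 626 CPM in TET2 WT shControl, TET2 WT shMBD6, TET2 KO shControl and the TET2 KO libraries labelled shMBD6, and CYRIB at 189, 207, 396 and 310 CPM. CYRIB, GOLGA8A, LRRC69 and ALDH1A2 overlap other genes on their strand. Among the members, ME1 ranked 43 (0.140), TXNRD1 2290 (0.383), NQO1 2994 (0.408) and GCLM 7032 (0.508). NFE2L2 ranked 8207 (0.537), KEAP1 10704 (0.606) and OSGIN1 11218 (0.626).

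The mouse counterparts of the members were also counted in caRNA of mouse embryonic stem cells treated with siControl or with siNsun2, an siRNA against the RNA methyltransferase Nsun2, with 3 libraries each. These libraries took no part in the choice of the genes. Nsun2 fell from 129 ± 3.45 to 103 ± 3.55 CPM (SD, n = 3; log2 -0.34, SE 0.03, edgeR adjusted p = 2.78e-16). Of the 10 genes, 8 were called, 5 higher and 3 lower, where 50.2% of 27603 genes were called (25.8% higher, 24.3% lower); with DESeq2 size factors 5 were called, 2 higher and 3 lower. Hmox1 stood at 19.8, 18.4 and 20.3 CPM with siControl and 12.4, 11.6 and 12.4 with siNsun2, without overlap (log2 -0.68, SE 0.08, edgeR adjusted p = 1.43e-12). Nfe2l2 fell from 115 ± 0.991 to 91.4 ± 1.65 CPM (log2 -0.33, SE 0.03, edgeR adjusted p = 1.16e-15; SD, n = 3), and Me1 fell from 123 ± 3.55 to 102 ± 1.02 CPM (log2 -0.27, SE 0.03, edgeR adjusted p = 3.06e-12; SD, n = 3). Gclc stood at 102, 106 and 104 CPM with siControl and at 120.0, 122 and 119 with siNsun2 (log2 0.21, SE 0.03, edgeR adjusted p = 1.1e-08), and Txnrd1 changed by 0.14 (SE 0.03, edgeR adjusted p = 9.62e-06). Gclm, Nqo1 and Srxn1 changed by 0.12, 0.22 and 0.26 (edgeR adjusted p = 0.0156, 0.0187 and 0.0455) and were called in 8 of 12, 7 of 12 and 1 of 11 alternatives. Gclm was lost without siControl replicate 1 or siNsun2 replicate 3 (log2 0.09), Nqo1 without siControl replicate 2 or siNsun2 replicate 1 or 2 (0.16 to 0.21) and Srxn1 without any 1 of the 6 libraries (0.23 to 0.28). Keap1 and Osgin1 were not called (log2 0.02 and 0.62, edgeR adjusted p = 0.813 and 0.156), and Osgin1 was called higher without siControl replicate 1 (log2 1.14, over a range of adjusted p from 0.0265 to 0.558). Keap1 was called higher with the stricter filter and with total gene counts (log2 0.20 in each, edgeR adjusted p = 0.00994 and 0.0117) and lay below 0 with DESeq2 size factors (-0.04), so its direction is not settled. Srxn1, whose level could not be read in K562, stood at 6.32 ± 0.234 CPM with siControl (SD, n = 3). Gclc, the gene that set the list in K562, thus rose with siNsun2, and all 3 siNsun2 libraries were above all siControl libraries. The treatments also differed in the make-up of their libraries. Reads outside genes were 19.6% to 20.2% of records with siControl and 28.9% to 29.9% with siNsun2. Genes with at least 1 read numbered 36407 to 36464 and 38693 to 39115. The part of this shift in the changes was not tested.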

How the data were processed

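RNA of the chromatin fraction was sequenced by the authors by a stranded, rRNA-depleted protocol, giving 12 K562 and 6 mESC libraries; 1 further mESC library, labelled Pspc1 WT, was not used. Per the study's methods and the submitters' processing notes, the authors trimmed reads with Trimmomatic 0.39, aligned them with HISAT2 2.2.1 to hg38 or mm10 and counted reads per GENCODE gene with HTSeq 0.12.4. The deposited values are raw read counts per gene, 1 table per library, without scaling, filtering or pooling by the authors. The tables hold 0 spike-in entries, so that each value is relative to the rest of its library. The feature type and strand option are not given in the sources used here; genes inside a gene on their own strand are nearly all at 0 and those inside a gene on the opposite strand are mostly not, so reads were treated as counted by strand over whole spans, with reads shared by overlapping genes set aside.

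Entries without a gene entered neither library sizes nor tests; reads outside genes were 13.1% to 16.0% and reads with more than 1 alignment 10.1% to 11.2% of K562 records. A second listing of 45 genes was dropped. Without version numbers 99.2% of human identifiers matched GENCODE v44 and 99.9% of mouse identifiers matched vM21. Replicate pairs differed by more than sampling noise (chi-square per degree of freedom 5.30 to 14.9 in K562).

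Groups came from the sample labels. Genes were tested in R 4.3.3 with edgeR 4.0.16 by its quasi-likelihood test, TMM scaling, filterByExpr at a minimum of 10 counts and two-sided Benjamini-Hochberg adjustment over all genes tested, called at an adjusted p under 0.05. The K562 fit held 12 libraries in 4 groups. TMM factors turned the deposited counts into CPM. On simulated counts for the TET2 WT comparison (24941 genes), 72% of changes of 0.5 and 95% of changes of 1 on the log2 scale were called. In mESC (26916 genes) the shares were 82% and 100%. The changes were planted in 100 genes for each size, all above the median level. These rates therefore do not cover genes at low levels or comparisons with many changed genes. Alternatives were other scalings, filters, DESeq2 1.42.0, a replicate block, the compared groups alone and each library left out.

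Members, lists and tests were chosen with earlier results of these data known. Named were the members, TET2 and MBD6; up to 4 other pathway genes per comparison with the largest change among those called, not overlapping (except for the interaction) and at 1 CPM or more in 1 group; tested genes within 1 Mb of the GCLC start; and the 5 protein-coding genes nearest to GCLC in log2(CPM + 0.5). Other names are said to be chosen after their values were seen. Window sequences are from RefSeq (GRCh38.p14); none was found for HMOX1. A lymphoid marker is not reported here and was left out of the summed level.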

Additional observations from a re-analysis of the deposited data

Results flagged for a closer look

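The response to shMBD6 differed between TET2 KO and TET2 WT by the interaction test for 7 of the 8 members in the fit, in a design where 49.4% of all genes passed that test. With the stricter filter, 7680 of 9936 genes passed it. The interaction, TET2 KO minus TET2 WT on the log2 scale, was 0.91 for NFE2L2, 1.23 for KEAP1, 0.54 for TXNRD1 and 0.87 for NQO1, which fell with shMBD6 in TET2 WT and rose in TET2 KO as labelled. It was -0.53 for GCLC, -0.69 for GCLM and -0.57 for ME1, which rose in TET2 WT and fell in TET2 KO. MBD6 itself fell with shMBD6 in TET2 WT and stood at 30.3 CPM with shControl and 34.4 CPM with shMBD6 in TET2 KO, and what part the knockdown had in these differences was not tested. Groups of 3 libraries were not searched for single libraries that stand apart.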

How the results depend on the processing

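Member calls in TET2 KO and for the interaction numbered 7 under every alternative run, and in TET2 WT 5 to 7 (5 to 7 with 1 library left out). Of 349 member values recomputed, 335 kept their direction and side of the threshold, 10 lost the call, 2 gained it and 2 turned: the OSGIN1 change in TET2 KO was -0.0485 without TET2 KO shControl replicate 3 and -0.00215 without replicate 1 of those labelled shMBD6 (-0.0485 to 0.134 over single libraries left out). Of 206 untested genotype differences, 167 stayed within the spread between replicates, 37 moved beyond it in the same direction (GCLC with shMBD6 from 0.63 to 0.42 and ME1 from 0.38 to 0.17 with the stricter filter, NFE2L2 with shControl from -0.34 to -0.52 and GCLM from 0.25 to 0.07 with total gene counts) and 2 turned, both with total gene counts and shControl: TXNRD1 -0.0892 and NQO1 -0.0457. TET2 with shControl likewise turned to -0.0893, and its shMBD6 change in TET2 WT to -0.0210, -0.0219 and -0.00695 without TET2 WT shControl replicate 1, TET2 WT shMBD6 replicate 2 and replicate 3 (-0.0219 to 0.0269), yet 5 other alternatives called that change higher (0.0984 to 0.176), and TET2 was called higher in TET2 KO with shControl under the replicate block (adjusted p = 0.0413). Mouse members called were 5 with DESeq2 size factors and 5 with the DESeq2 test against 8, and Keap1 turned to -0.0390 with each but was called higher with the stricter filter and total gene counts. The cause of these shifts was not tested. The numbers in the labels do not pair the K562 libraries (correlations of deviations from -0.017 to 0.020), and with a replicate block 7 members were called in each K562 comparison and 7 in mESC. The stricter filter left 9936 genes and called 6775 in TET2 WT against 11046, 7680 against 12853 for the interaction, 7553 against 11921 and 7206 against 15260 between genotypes with shControl and shMBD6, and in mESC 5151 against 13844. The share of calls on the higher side in TET2 WT was 41.8%, and 55.1%, 57.3%, 54.6% and 53.4% with DESeq2 size factors, DESeq2, no filter and total gene counts, which moved the median of all genes by 0.11, 0.11, 0.30 and 0.10. With total gene counts that share went from 43.3% to 59.9% in TET2 KO, from 51.4% to 35.3% and 39.6% between genotypes with shControl and shMBD6 (41.1% with DESeq2 for the latter) and from 51.5% to 79.8% in mESC, the medians moving by 0.12, -0.18, -0.15 and 0.18. No called member turned in a shRNA comparison under these scalings. Depth leaves HMOX1 without a usable level, and counts cannot show total RNA per cell.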
